A study of Mus musculus with 10 samples.

Results

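The genes described here are 10 mouse GTPases whose transcription is known to be switched on by interferon gamma: Gbp2, Gbp3, Gbp4, Gbp5, Gbp6, Gbp7, Gbp8 and Gbp9, which encode guanylate-binding proteins, and Irgm1 and Igtp (also known as Irgm3), which encode immunity-related GTPases. They were taken by name, not by their values, from the 52324 gene symbols of the deposited table. All 10 were found, and all 10 were among the 15469 genes that passed the filter on low values and were tested.

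RNA was sequenced from subcutaneous tumours grown from 4T1, a mouse mammary carcinoma line, at day 14. The 5 groups of 2 libraries each were the negative control (PBS in the design text), Free-MK1775, Free-MK1775+NLG919, Lipo-MK1775 and Lipo-MK1775+NLG, the last of which the design text lists with NLG919. MK1775 inhibits WEE1, the kinase that restrains entry into mitosis, and NLG919 acts on the IDO1 pathway, through which tumours break down tryptophan; the labels and design text do not say what the Free and Lipo forms consist of, nor do they state doses or the strain and age of the mice. Nothing in the labels says that the libraries of a group came from separate mice, so the p-values below measure only the spread between these samples, which may be technical.

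Interferon gamma is released mainly by activated T cells and natural killer cells. Its receptor, built from the Ifngr1 and Ifngr2 chains, activates the kinases JAK1 and JAK2. The signal reaches genes with a DNA element named GAS, Irf1 among them, and IRF1 and related factors bind the interferon-stimulated response element (ISRE) of a further set of genes. Guanylate-binding proteins and immunity-related GTPases are among the most strongly induced of these in many cell types: the first coat the membranes of vacuoles and intracellular bacteria and promote inflammasome activation, and the second control the membranes of such vacuoles, with Irgm1 and Igtp acting as regulators of the other members.

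The levels are given in nuclear TPM: the deposited FPKM (fragment numbers relative to the length of the transcript and the mapped total) were summed per gene and rescaled so that all rows outside the mitochondrial chromosome add up to 1000000 in each library, which is a level per transcript length. The rescaling was used because mitochondrial transcripts took up 47.3% of the summed FPKM in Free-MK1775+NLG919 replicate 2 and 64.1% and 56.0% in the Lipo-MK1775 libraries, but 2.88% to 4.82% in the other 7. From the FPKM that 1 fragment is worth, 20490000 to 27620000 mapped fragments were estimated in these 3 libraries and 25910000 to 40000000 in the others. The rescaling did not bring the 3 libraries level with the others: against the mean of the control, the median of all tested genes was -0.79 (log2) in Free-MK1775+NLG919 replicate 2 and -0.80 and -0.73 in the Lipo-MK1775 libraries, and between -0.11 and 0.02 in the others. Long transcripts were lower still there: for genes with a main transcript of 2000 to 6000 bases, which holds for 9 of the 10 GTPases, the medians of the 3 libraries were -0.99, -0.95 and -0.92, against 0.05, -0.19 and -0.03 for genes under 1000 bases. Since both Lipo-MK1775 libraries are among the 3, effects of this treatment cannot be told apart from those of a high mitochondrial share. In whole tumours, fewer cells of a type and less RNA per cell cannot be told apart either.

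The promoters are shown first because the genes were chosen for a shared response to interferon gamma and their levels moved together from library to library. RefSeq promoters (GRCm38.p6; 250 bases before to 50 after the start) were found for 6 of the 10 genes; Gbp4, Gbp6, Gbp8 and Gbp9 are named only. They were searched on both strands for the ISRE core, which is GAAA followed after any 2 bases by a second GAAA, and for the GAS element, TTCNNNGAA. The ISRE core was present in all 6 genes (in 6 of 7 promoters, since Gbp3 has 2 starts and 1 of them had no match), whereas 3.44% of all 32851 promoters in the table held it. GAS was present in 3 of the 6, Gbp5, Gbp7 and Igtp, against 8.30% of all promoters. Both were found together in those 3 genes and in 0.45% of all promoters. The stretches around the matches, all before the start, are printed below 5′ to 3′ on the strand of the gene, with the matches in capitals; an ISRE core on the opposite strand reads TTTC, 2 bases, TTTC, and the pairs of ISRE matches in Gbp3 and in Irgm1 overlap. The first 4 lie at chr3:142496684-142496915, chr3:142530205-142530317, chr3:142559974-142560039 and chr3:142620579-142620638 (plus strand), Irgm1 at chr11:48871421-48871475 (minus strand) and Igtp at chr11:58199486-58199555 (plus strand), in GRCm38.p6.
Gbp5: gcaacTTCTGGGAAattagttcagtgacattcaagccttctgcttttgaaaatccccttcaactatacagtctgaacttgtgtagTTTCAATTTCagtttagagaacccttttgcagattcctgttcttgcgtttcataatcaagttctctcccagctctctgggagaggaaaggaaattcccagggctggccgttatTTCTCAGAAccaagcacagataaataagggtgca
Gbp7: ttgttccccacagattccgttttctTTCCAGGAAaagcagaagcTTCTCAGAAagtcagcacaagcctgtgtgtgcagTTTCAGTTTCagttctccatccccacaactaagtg
Gbp3: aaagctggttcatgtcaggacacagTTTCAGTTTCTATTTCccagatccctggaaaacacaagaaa
Gbp2: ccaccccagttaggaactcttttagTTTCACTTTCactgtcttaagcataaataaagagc
Irgm1: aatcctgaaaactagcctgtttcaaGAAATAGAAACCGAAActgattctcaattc
Igtp: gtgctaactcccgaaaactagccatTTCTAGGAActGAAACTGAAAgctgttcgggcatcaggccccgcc
A match describes the letters of a window and was not tested for binding.

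The GTPase RNA was abundant in control tumours and lowest in a single library, Free-MK1775+NLG919 replicate 2. Summed over the 10 genes, the level was 1319 and 652 nuclear TPM in the control, 970 and 974 in Free-MK1775, 721 and 690 in Lipo-MK1775+NLG, 390 and 346 in Lipo-MK1775, and 783 and 100.5 in replicates 1 and 2 of Free-MK1775+NLG919. The group means ran in the order control (986 ± 471, SD, n = 2), Free-MK1775 (972 ± 3.11), Lipo-MK1775+NLG (705 ± 22.0), Free-MK1775+NLG919 (442 ± 483) and Lipo-MK1775 (368 ± 31.4). The control overlapped with Free-MK1775 and with Lipo-MK1775+NLG, and the range of Free-MK1775+NLG919 held all 4 libraries of the Lipo-MK1775 and Lipo-MK1775+NLG groups. Free-MK1775 and Lipo-MK1775+NLG, neighbours in that order, did not overlap. The 2 control libraries differed by a median of 1.03 (log2) over the 10 genes, 9 of which were lower in replicate 2, where the median difference of all tested genes was -0.04; this spread stands behind every comparison with the control.

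**Figure D1:**
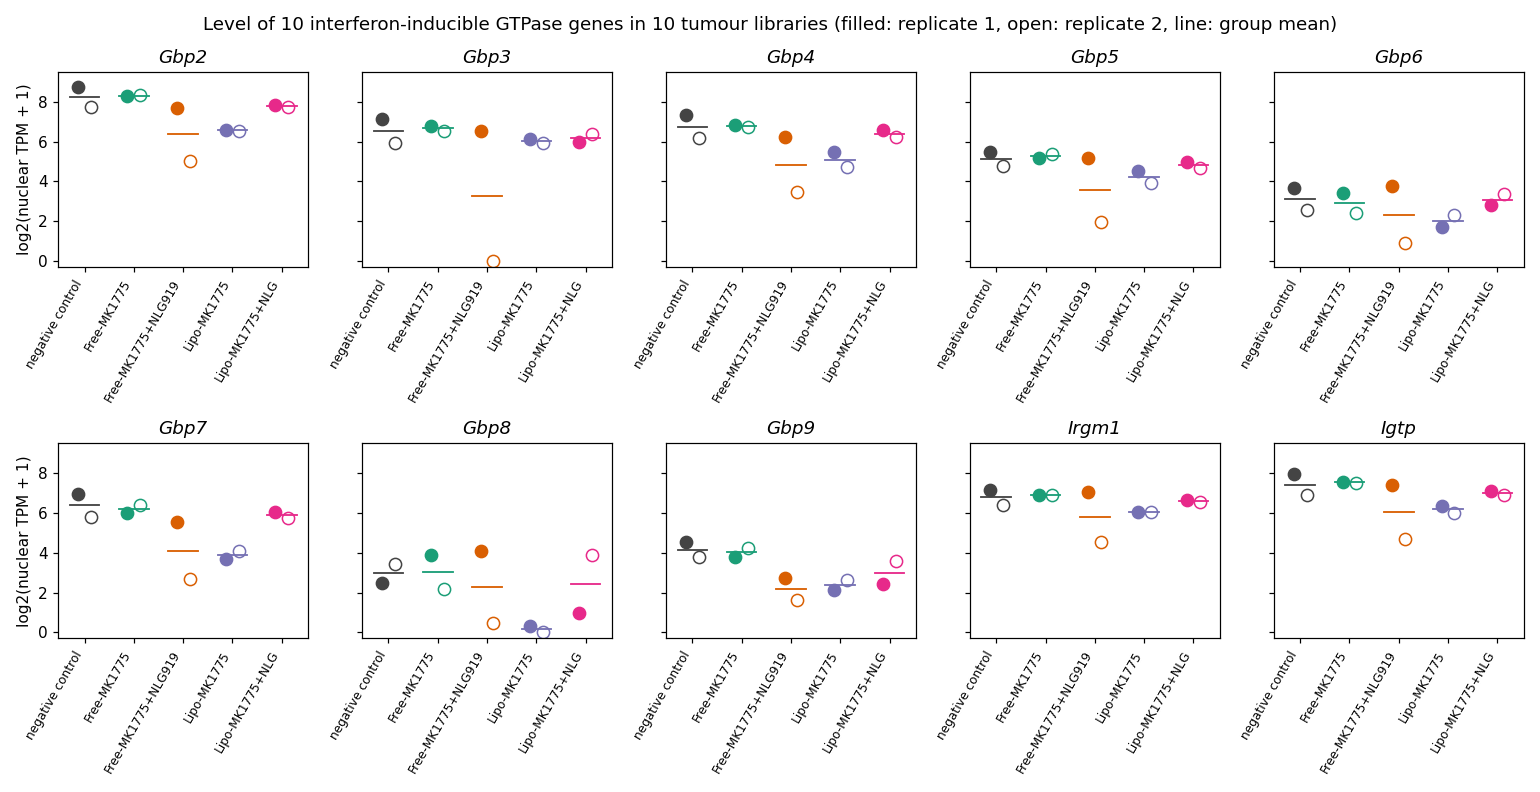
Level of each GTPase gene as log2(nuclear TPM + 1) on the y axis, by group on the x axis; filled points are replicate 1, open points replicate 2, and the line is the mean of the group. Free-MK1775+NLG919 replicate 2 is the lowest library for 9 of the 10 genes, and for Gbp8 the lowest is Lipo-MK1775 replicate 2, listed at 0.

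Of the guanylate-binding proteins encoded on chromosome 3, Gbp2 (GRCm39, chromosome 3, 142326363 to 142343898, plus strand, main transcript of 11 exons) had the highest level of all 10 genes. It stood at 432 and 214 nuclear TPM in the control, 306 and 325 in Free-MK1775, 204 and 32.1 in Free-MK1775+NLG919, 95.4 and 91.4 in Lipo-MK1775, and 226 and 213 in Lipo-MK1775+NLG. The Lipo-MK1775 libraries agreed within 4 units and lay below both control libraries, while the 2 libraries of Free-MK1775+NLG919 lay on either side of them. Reads of Gbp2 and its close relative Gbp2b can be split between the copies in an uncertain way.

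Gbp5 (chromosome 3, 142199739 to 142228105, plus strand), known to promote assembly of the NLRP3 inflammasome, stood at 43.2 and 26.7 nuclear TPM in the control, 35.4 and 41.1 in Free-MK1775, 35.2 and 2.90 in Free-MK1775+NLG919, 22.0 and 14.1 in Lipo-MK1775, and 30.4 and 24.9 in Lipo-MK1775+NLG. The difference between the replicates of Free-MK1775+NLG919 was larger than any difference among the other 9 libraries. Gbp7 (chromosome 3, 142236103 to 142255910, plus strand) stood at 123 and 54.2, 62.7 and 84.5, 46.15 and 5.30, 11.95 and 16.2, and 66.0 and 52.2 nuclear TPM, with the groups in the same order. It was the only one of the 10 with both Lipo-MK1775 libraries under 17 nuclear TPM while both control libraries were above 54. The transcript Gm43802 lies, on the same strand, within the end of the long Gbp7 transcript, and reads of both cannot be told apart there: it stood at 42.1 and 11 nuclear TPM in Lipo-MK1775 and at 1.93 and 11.7 in the control. With it added, Gbp7 was at 54.0 and 27.2 in Lipo-MK1775 and at 125 and 65.9 in the control.

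Gbp3 (chromosome 3, 142265787 to 142278970, plus strand) stood at 137.5 and 58.9 nuclear TPM in the control, 110 and 92.75 in Free-MK1775, 90.8 and 0 in Free-MK1775+NLG919, 67.9 and 60.7 in Lipo-MK1775, and 62.4 and 81.2 in Lipo-MK1775+NLG. The 0 is how the named transcripts are listed and not an absence: an assembled transcript without a gene name at that place brought the value to 24.6, which was still the lowest of the 10 libraries. Both Lipo-MK1775 libraries lay between the 2 control libraries, unlike those of Gbp2 and Gbp7.

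The 4 members on chromosome 5 are related genes that lie near each other on the minus strand. How reads were split between related genes there was not tested and is uncertain. Gbp4 (105263633 to 105287452) stood at 159 and 71.6 nuclear TPM in the control, 113 and 106 in Free-MK1775, 73.9 and 9.97 in Free-MK1775+NLG919, 42.8 and 25.8 in Lipo-MK1775, and 93.5 and 75.04 in Lipo-MK1775+NLG. Its levels followed those of Gbp2 from library to library. Gbp9 (105225496 to 105258170) stood at 21.9 and 12.9, 12.6 and 18.1, 5.69 and 2.065, 3.33 and 5.15, and 4.30 and 11.05 nuclear TPM in the same order, so that both control libraries were above every library of the 2 groups with NLG919 and of Lipo-MK1775. Unnamed assembled transcripts held 69.4% of the FPKM at the Gbp9 locus; with them added the gene stood at 50.8 and 31.7 in the control, 40.15 and 8.88 in Free-MK1775+NLG919, 14.55 and 15.4 in Lipo-MK1775, and 38.4 and 36.1 in Lipo-MK1775+NLG, which then lay between the 2 control libraries.

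Gbp6 (105418568 to 105441609) stood at 11.9 and 4.96 nuclear TPM in the control, 9.74 and 4.37 in Free-MK1775, 12.8 and 0.845 in Free-MK1775+NLG919, 2.22 and 3.92 in Lipo-MK1775, and 5.98 and 9.28 in Lipo-MK1775+NLG. Gbp8 (105162016 to 105201473) stood at 4.53 and 9.93, 13.6 and 3.55, 16.1 and 0.365, 0.247 and 0, and 0.977 and 13.7 nuclear TPM in the same order. These 2 had the lowest levels of the 10 genes, and their replicates overlapped between most groups. Gbp8 rested on 0 to 511 estimated fragments per library, against 728 to 14278 for Gbp2, and unnamed transcripts held 48.5% of its locus.

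The immunity-related GTPases are encoded on chromosome 11. Irgm1 (48752795 to 48762510, minus strand), a regulator that guards host membranes and takes part in autophagy, stood at 143 and 82.2 nuclear TPM in the control, 119 and 119 in Free-MK1775, 131 and 22.0 in Free-MK1775+NLG919, 65.2 and 64.85 in Lipo-MK1775, and 98.0 and 90.9 in Lipo-MK1775+NLG. Igtp (58090382 to 58098417, plus strand), a second regulator found on the endoplasmic reticulum, stood at 242 and 117, 187.5 and 179, 168 and 24.99, 79.15 and 63.6, and 134 and 119 nuclear TPM in that order. Both had the same shape as Gbp2 across the libraries: nearly equal replicates in Free-MK1775, Lipo-MK1775 and Lipo-MK1775+NLG, a control pair about 2-fold apart, and a single very low library.

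**Figure D2:**
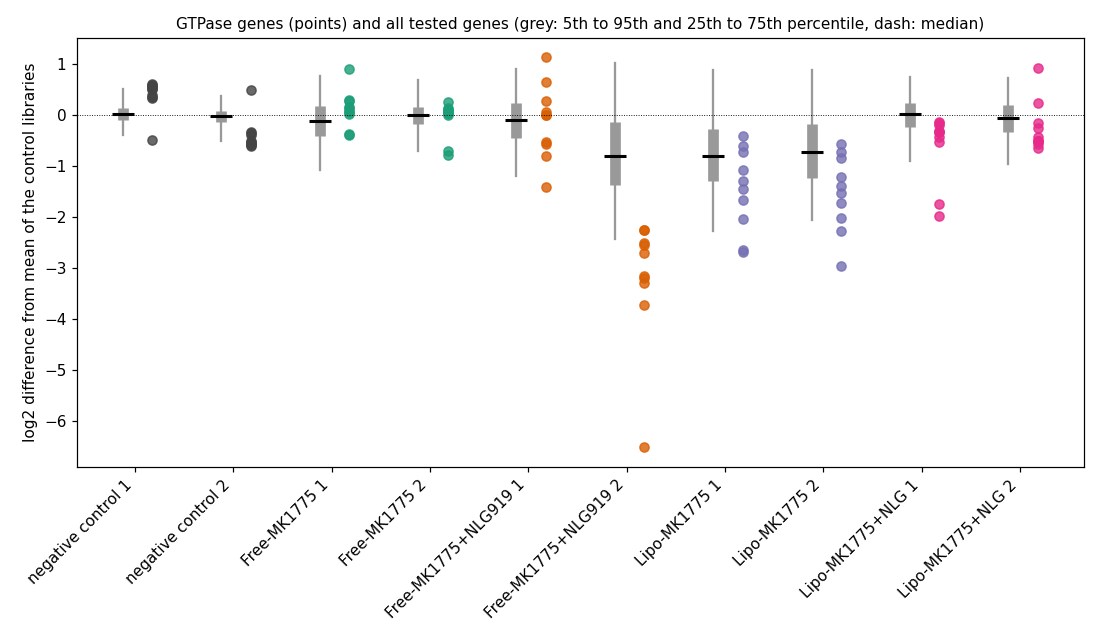
Difference of each library from the mean of the 2 control libraries (y axis, log2) for the 10 GTPase genes (points) and all tested genes (thin grey line, 5th to 95th percentile; thick line, 25th to 75th; dash, median), by library on the x axis. In Free-MK1775+NLG919 replicate 2, 8 of the 10 genes lie below the 5th percentile of all genes (-2.42), against 2 of 10 in each Lipo-MK1775 library. In control replicate 2, 5 of the 10 lie below the 5th percentile of that library (-0.51).

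The 2 libraries of Free-MK1775+NLG919 differed and are given on their own. In replicate 1 the median of the 10 genes was at the control mean (0.00, log2; all genes -0.09): Gbp9 was 1.41 below it and Gbp8 1.13 above. In replicate 2 it was -2.94 (all genes -0.79, with a 75th percentile of -0.14). All 10 genes were below the control mean, from -2.25 for Gbp6 and Irgm1 to -3.72 for Gbp7 and -6.51 for Gbp3, which is listed at 0. Between the replicates, the 10 genes were lower in replicate 2 by a median of 2.84, where the median difference of all genes was -0.67. Relative to genes of the same length class, the median of the 10 was still -2.10 in replicate 2, and -0.43 and -0.54 in the Lipo-MK1775 libraries. Free-MK1775+NLG919 replicate 2 was also the lowest library for 9 of the 10 genes when libraries were scaled by the median of gene ratios, and for all 10 when assembled transcripts were added.

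With Free-MK1775, the WEE1 inhibitor in free form without a second drug, the 10 genes lay around the level of the control: 7 were above it and 3 below, with a median log2 change of 0.06 (all genes -0.06) and a range of -0.21 to 0.16. By limma (moderated test, two-sided, Benjamini-Hochberg adjustment over all tested genes, threshold 0.05), 0 of the 10 were called, and 0 had an unadjusted p under 0.05; 0.0129% of all genes were called, and 303 genes had an unadjusted p under 0.05. The smallest p-values were those of Gbp9 (-0.15, SE 0.55, limma adjusted p = 1) and Gbp6 (-0.21, SE 0.86, adjusted p = 1). In 0 of the 10 did both Free-MK1775 libraries lie below both controls, as in 20.2% of all genes. Without control replicate 1, 1 of the 10 estimates was negative and the median was 0.51.

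Free-MK1775+NLG919 against the control, the free form with the second drug, gave estimates that differed widely between the 2 libraries. All 10 genes had negative estimates (median -1.72, all genes -0.44), carried by replicate 2. limma called 0 of the 10, with 4 at an unadjusted p under 0.05, and 0.0194% of all genes, with 3353 at an unadjusted p under 0.05. Gbp9 had a log2 change of -1.98 (SE 0.55, adjusted p = 0.157; 3.88 ± 2.56 nuclear TPM, SD, n = 2, against 17.4 ± 6.37 in the control). Gbp7 had -2.26 (SE 0.80, adjusted p = 0.192; 25.7 ± 28.9 against 88.7 ± 48.8), and -1.80 (adjusted p = 0.246) with Gm43802 added. Both libraries lay below both controls for 3 of the 10, Gbp2, Gbp7 and Gbp9, and for 40.7% of all genes. Without replicate 2 the median of the 10 was 0.00. Without replicate 1, which leaves the single library of high mitochondrial share, it was -2.94, and -2.135 relative to the median of all genes. Gbp2 was then at -3.20 and Irgm1 at -2.25.

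With Lipo-MK1775, given without NLG919, Gbp9 fell relative to the control, by 1.79 on the log2 scale (SE 0.55, limma adjusted p = 0.0492), from 17.4 ± 6.37 to 4.24 ± 1.29 nuclear TPM (SD, n = 2). Its named transcript of 5070 bases went from 16.7 and 7.26 to 0.162 and 0.213 nuclear TPM. That of 4409 bases went from 5.22 and 5.62 to 3.17 and 4.94. How reads were split between these transcripts was not tested. The other 9 genes were not called: all had negative estimates, from -0.48 for Gbp3 to -2.80 for Gbp8, and Gbp7 had -2.47 (SE 0.80, adjusted p = 0.0543). The count of 1 in 10 stands beside 21.0% of all genes called in this comparison, 3000 of 3251 calls being lower; with median-of-ratios scaling 384 of 826 were. The median of the 10 was -1.45, that of all genes -0.78, and relative to the latter Gbp7 was at -1.70, Gbp9 at -1.01, Gbp2 at -0.92 and Irgm1 at 0.05. Both libraries lay below both controls for 9 of the 10 genes (Gbp3 overlapped) and for 67.2% of all genes. With libraries scaled by the median of gene ratios, 8 of the 10 were below the control and Gbp3 and Irgm1 were above it (0.39 and 0.15), the median was -0.60, and 0 were called, Gbp9 having -1.02 (adjusted p = 0.188). Without control replicate 1 the median of the 10 was -0.90, which was 0.15 below that of all genes in place of 0.67 below. The call of Gbp9 also ended when assembled transcripts were added (-1.36, adjusted p = 0.0638), and 0 of the 10 were called without any 1 of the 8 libraries outside Free-MK1775+NLG919. Leaving out either library of Free-MK1775+NLG919, a group that widens the shared spread, did not move the estimates. The median of the 10 stayed at -1.45, and was -0.66 relative to that of all genes. Gbp2 was at -1.69, and Irgm1 was at 0.05 relative to the median of all genes.

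Lipo-MK1775+NLG against the control compares 4 libraries of low mitochondrial share. The 10 genes were somewhat below the control mean, with a median of -0.38 (all genes -0.02) and a range of -1.16 to -0.05. limma called 0 of the 10, with 0 at an unadjusted p under 0.05, and 0.00646% of all genes, with 390 at an unadjusted p under 0.05. Gbp9 had -1.16 (SE 0.55, adjusted p = 1; 7.68 ± 4.77 nuclear TPM against 17.4 ± 6.37) and Gbp2 -0.47 (SE 0.70, adjusted p = 1; 219 ± 9.33 against 323 ± 154). Gbp9 was the 1 gene of the 10 with both libraries below both controls, as were 23.4% of all genes. The direction rested on control replicate 1: without it, 2 of the 10 estimates were negative, the median was 0.11, and that of Gbp2 was 0.04.

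**Figure D3:**
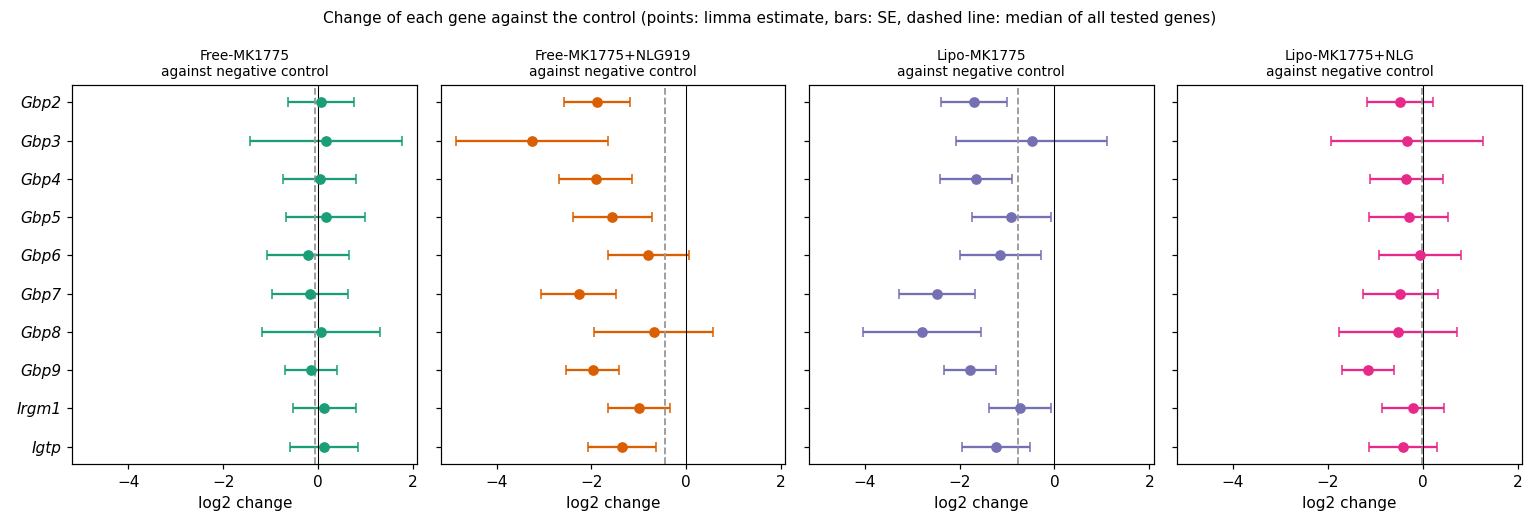
log2 change against the negative control (x axis) for each gene (rows of the y axis), 1 panel per treated group; points are the limma estimates, bars their SE, the solid line is 0 and the dashed line the median of all tested genes. All 10 points lie left of 0 in the panels of Free-MK1775+NLG919, Lipo-MK1775 and Lipo-MK1775+NLG, and between -0.21 and 0.16 for Free-MK1775; without control replicate 1, 2 of the 10 estimates of Lipo-MK1775+NLG were negative. Only Gbp9 with Lipo-MK1775 was called.

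Adding NLG919 to the free form was compared within that form. All 10 genes had negative estimates against Free-MK1775 (median -1.77, all genes -0.39), from -0.59 for Gbp6 to -3.41 for Gbp3. limma called 0 of the 10, with 4 at an unadjusted p under 0.05, and 0% of all genes, with 1657 at an unadjusted p under 0.05. Gbp9 had -1.83 (SE 0.55, adjusted p = 0.432; 3.88 ± 2.56 nuclear TPM against 15.3 ± 3.86) and Gbp2 -1.94 (SE 0.70, adjusted p = 0.432; 118 ± 121 against 316 ± 13.4). Both libraries lay below both Free-MK1775 libraries for 7 of the 10 genes and 30.8% of all genes. Without the 3 libraries of high mitochondrial share, which leaves replicate 1 alone, 7 of 10 estimates were negative with a median of -0.14. Without replicate 1, which leaves replicate 2 alone, the median was -3.04, and -2.32 relative to that of all genes.

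Adding NLG919 to the Lipo form went with higher values, in a comparison of 2 libraries of high with 2 of low mitochondrial share. All 10 estimates against Lipo-MK1775 were positive (median 0.96, all genes 0.75). limma called 0 of the 10, with 1 at an unadjusted p under 0.05, and 5.34% of all genes, with 6401 at an unadjusted p under 0.05. Gbp7 had 2.00 (SE 0.80, adjusted p = 0.0973; 59.1 ± 9.74 nuclear TPM against 14.1 ± 3.00), which became 0.84 (adjusted p = 0.447) with Gm43802 added, and Gbp8 had 2.27 (SE 1.25, adjusted p = 0.188; 7.36 ± 9.03 against 0.123 ± 0.175). Both libraries lay above both Lipo-MK1775 libraries for 8 of the 10, and for 68.6% of all genes. Under median-of-ratios scaling the estimates were split, 5 positive and 5 negative, with a median of 0.16. Without Free-MK1775+NLG919 replicate 2 the median of the 10 stayed at 0.96, and was 0.20 above that of all genes.

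The 2 forms were also set against each other. Without NLG919, all 10 genes were lower in Lipo-MK1775 than in Free-MK1775, with no overlap of libraries for 10 of 10 genes, as for 65.9% of all genes, and a median of -1.50 (all genes -0.71). limma called 0 of the 10, with 4 at an unadjusted p under 0.05, and 3.39% of all genes, with 5938 at an unadjusted p under 0.05. Gbp9 had -1.64 (SE 0.55, adjusted p = 0.0775; 4.24 ± 1.29 nuclear TPM against 15.3 ± 3.86) and Gbp7 -2.31 (SE 0.80, adjusted p = 0.0819; 14.1 ± 3.00 against 73.6 ± 15.5). Without Free-MK1775+NLG919 replicate 2 the median of the 10 stayed at -1.50, and was -0.78 relative to that of all genes. With median-of-ratios scaling 9 of the 10 estimates were negative, with a median of -0.71 and 0 called.

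With NLG919 in both, all 10 estimates were higher for the Lipo than for the Free form (median 1.10, all genes 0.42). limma called 0 of the 10, with 0 at an unadjusted p under 0.05, and 0.0129% of all genes, with 1936 at an unadjusted p under 0.05. Gbp7 had 1.79 (SE 0.80, adjusted p = 0.373; 59.1 ± 9.74 nuclear TPM against 25.7 ± 28.9) and Gbp4 1.56 (SE 0.77, adjusted p = 0.373; 84.3 ± 13.1 against 41.9 ± 45.2). Both libraries lay above both of Free-MK1775+NLG919 for 3 of the 10, Gbp2, Gbp4 and Gbp7, and for 38.7% of all genes. This difference came from replicate 2: without the 3 libraries of high mitochondrial share the median was -0.35, with 6 of 10 estimates negative.

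The interaction of form and NLG919 asks whether NLG919 moved the genes differently in the 2 forms. All 10 estimates were positive (median 2.75, all genes 1.12), and limma called 1 of the 10, Gbp7 (4.10, SE 1.12, adjusted p = 0.0429), beside 21.0% of all genes; Gbp2 had 3.17 (SE 0.98, adjusted p = 0.0504). The call of Gbp7 ended with Gm43802 added (2.64, adjusted p = 0.116) and with median-of-ratios scaling (2.84, adjusted p = 0.113). Without Free-MK1775+NLG919 replicate 2, Gbp2 was at 1.85 and Gbp7 at 2.65. The median of the 10 was then 1.08, which was 0.28 above that of all genes in place of 1.63 above. Without Free-MK1775+NLG919 replicate 1 it was 4.21, which was 2.75 above that of all genes. Without any 1 of the other 8 libraries, 0 of the 10 were called. All 3 libraries of high mitochondrial share enter this contrast with signs that add up.

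The pathway upstream of the GTPases was followed in the same libraries. Ifng, the ligand, stood at 2.21 and 0.616 nuclear TPM in the control, 1.99 and 1.21 in Free-MK1775, 1.80 and 0 in Free-MK1775+NLG919, 0.793 and 0.234 in Lipo-MK1775, and 2.08 and 2.12 in Lipo-MK1775+NLG. It was listed at 0 in the library where the GTPases were lowest, and it was low in control replicate 2, where they were lower than in replicate 1; at these levels it rests on few fragments. Ifngr1, the ligand-binding receptor chain, fell in Lipo-MK1775 against the control by 1.26 on the log2 scale (SE 0.27, limma adjusted p = 0.0281), from 78.2 and 74.75 to 30.6 and 31.9 nuclear TPM. In this comparison 21.0% of all genes were called. The median was -0.78 for all genes and -0.91 for the 3 genes of ligand and receptor. Ifngr1 was at 70.8 and 43.4 in Free-MK1775+NLG919. Ifngr2, the second chain, was at 42.85 and 50 in the control, 29.8 and 19.5 in Lipo-MK1775 and 63.35 and 22.95 in Free-MK1775+NLG919.

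Irf1, a transcription factor that the signal induces, stood at 258 and 204.5 nuclear TPM in the control, 236.5 and 221 in Free-MK1775, 196 and 56.0 in Free-MK1775+NLG919, 117 and 111 in Lipo-MK1775, and 171 and 171 in Lipo-MK1775+NLG. Like most of the GTPases, it was lowest in Free-MK1775+NLG919 replicate 2, and both Lipo-MK1775 libraries lay below both controls. Jak1, the kinase bound to Ifngr1, fell in Lipo-MK1775 by 1.88 (SE 0.39, adjusted p = 0.028), from 143 and 119 to 26.85 and 44.99, while Jak2 was at 94.5 and 109 in the control and 57.4 and 49.1 in Lipo-MK1775. Of the 9 transducers, 1 fell and 8 were not called in Lipo-MK1775 against the control, where 21.0% of all genes were called; their median was -0.92 and that of all genes -0.78. Of these 9, 0 were called in the other 3 comparisons with the control.

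Among 6 inhibitors of the signal, Ptpn2, a phosphatase, fell in Lipo-MK1775 against the control (-0.87, SE 0.24, adjusted p = 0.0387) and the other 5 were not called, beside 21.0% of all genes called and a median of all genes of -0.78. Socs1, induced by interferon gamma to shut its receptor down, was at 19.5 and 20.1 nuclear TPM in the control, 20.4 and 15.7 in Lipo-MK1775, and 19.3 and 3.33 in Free-MK1775+NLG919. Socs3 was at 232 and 218 in the control, 64.85 and 93.2 in Lipo-MK1775 and 137 and 42.8 in Free-MK1775+NLG919. Of 12 other interferon-inducible GTPases, 0 were called in any of the 9 contrasts. Iigp1, an effector that breaks vacuoles, was at 370 and 159 nuclear TPM in the control, 212 and 12.5 in Free-MK1775+NLG919, and 51.4 and 79.8 in Lipo-MK1775, and Ifi47 was at 133 and 79.3, 170 and 25.9, and 80.9 and 74.0 in that order. The named transcripts of Gbp2b were listed at 0 in 6 libraries. With assembled transcripts without a gene name at its place added, it stood at 435 and 230 in the control and 202.5 and 25.4 in Free-MK1775+NLG919. It was then at 103 and 92.6 in Lipo-MK1775, and all these were nearly the values of Gbp2. How reads were split between Gbp2 and Gbp2b was not tested.

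Interferon gamma targets outside the GTPases were less uniform. Of 19 tested, B2m, the light chain of MHC class I, fell in Lipo-MK1775 against the control (-0.84, SE 0.24, limma adjusted p = 0.044). It went from 7828 and 6440 to 4001 and 3947 nuclear TPM. The other 18 were not called, beside 21.0% of all genes called. The median of the 19 was -0.58, above that of all genes (-0.78), which was near the estimate of B2m. Cxcl10, a chemokine that draws T cells, was at 82.1 and 61.1 in the control, 86.0 and 45.8 in Lipo-MK1775, and 86.1 and 22.1 in Free-MK1775+NLG919. Cxcl9 was at 0.109 to 9.85 nuclear TPM, without a pattern by group. H2-K1 was at 1214 and 1100 in the control, 508 and 566 in Lipo-MK1775 and 361 and 328 in Free-MK1775+NLG919; H2-D1 ran from 89.25 to 2465, with 2465 and 89.25 in the 2 libraries of Free-MK1775+NLG919 and 1725 and 213 in the control; near-identical MHC copies can share reads, and its values are uncertain. In Free-MK1775+NLG919 replicate 2, all 19 tested targets lay below the control mean. The 75th percentile of all genes there was -0.14 (log2), so most genes lay below it too. B2m was at 7097 nuclear TPM there, between the 2 control libraries. Of the other 2 of the 21 listed, Serpina3g, which did not pass the filter, was at 8.69 nuclear TPM in that library and at 0 to 0.582 in the other 9 libraries. Ido1, the enzyme of the pathway NLG919 acts on, was listed at 0 there, against 3.73 in replicate 1 and 9.13 and 8.04 in the control.

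Genes best known for type I interferon were mixed. In Free-MK1775+NLG919 replicate 2 the median of 16 such genes was -0.59 against the control mean, 0.20 above that of all genes, where the 10 GTPases were 2.14 below it, the transducers 1.201 below and the other targets 1.07 below. Isg15, a ubiquitin-like modifier, was at 108 nuclear TPM there and at 121 and 112 in the control, Irf7 at 99.95 against 83.3 and 57.0, and Oasl2 at 38.6 against 65.9 and 41.15. These are the most abundant of the list; 11 of the 16 lay below the control mean, among them Rsad2 at 5.82 against 22.25 and 18.2, Ifih1 at 5.63 against 29.9 and 24.6, and Xaf1 at 8.57 against 50.2 and 29.75 (3 examples chosen after their values were seen). In the Lipo-MK1775 libraries the same list was 0.65 and 0.43 above all genes, Isg15 being at 199 and 202. In Lipo-MK1775 against the control 1 of 16, Oas2, fell (-1.97, SE 0.43, limma adjusted p = 0.0289) and 15 were not called, beside 21.0% of all genes called. In the interaction the estimate of Irf7 was negative (-1.56, SE 0.42, adjusted p = 0.0423), opposite in sign to all 10 GTPase estimates. The median main transcript of this list was 3016 bases long, that of the GTPases 2869, and relative to genes of the same length class the 2 lists were at 0.03 and -2.10 in Free-MK1775+NLG919 replicate 2. The gap between the lists in this library has no replicate check.

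**Figure D4:**
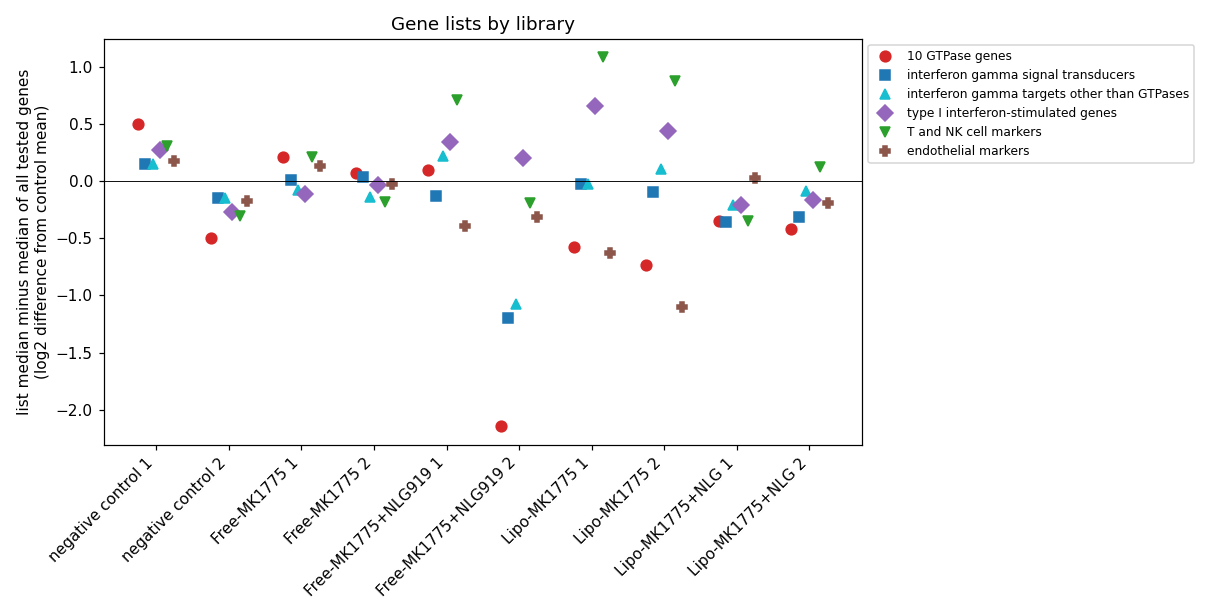
Median of each gene list in each library (x axis) as log2 difference from the control mean, minus the median of all tested genes (y axis); each symbol is a list. The GTPases are at -2.14 in Free-MK1775+NLG919 replicate 2, where the type I interferon-stimulated genes are at 0.20, and the T and NK cell markers are at 1.08 and 0.87 in the Lipo-MK1775 libraries.

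Genes that work with the GTPases were compared as well. Of 10 autophagy conjugation genes, which help to place the GTPases on membranes, Atg16l1 fell in Lipo-MK1775 against the control (-1.24, SE 0.37, limma adjusted p = 0.0469). The other 9 were not called, beside 21.0% of all genes called and a median of all genes of -0.78. In the interaction, Atg12 and Atg16l1 had positive estimates that were called (1.69 and 1.82, limma adjusted p = 0.0498 and 0.0459). The median of all genes was 1.12 in that contrast, and 21.0% were called. The abundant Gabarap, Map1lc3a and Map1lc3b were at 183 and 262, 183 and 167, and 95.8 and 120 nuclear TPM in Lipo-MK1775. In the control they were at 305.5 and 244, 125 and 129, and 122.5 and 122. Of 8 inflammasome genes, 0 were called in any contrast; Casp1 was at 121 and 122.5 in the control, 78.5 and 75.3 in Lipo-MK1775 and 127 and 57.0 in Free-MK1775+NLG919, and Il1b at 128 and 106, 68.9 and 140, and 106 and 87.65.

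Markers of the cells that make interferon gamma moved with the GTPases in part. The summed level of 14 T and NK cell markers was 104 and 57.2 nuclear TPM in the control, 89.1 and 61.9 in Free-MK1775, 112 and 24.6 in Free-MK1775+NLG919, 80.9 and 78.3 in Lipo-MK1775, and 58.1 and 84.6 in Lipo-MK1775+NLG. It was lowest in Free-MK1775+NLG919 replicate 2, where Gzma was at 0 and Cd3e at 0.279. The 12 tested markers there had a median of -0.98 (log2) against the control mean, beside -0.79 for all genes. The sum was also lower in control replicate 2 than in replicate 1. The part of these cells in the result was not tested. In Lipo-MK1775 the sum lay within the control range while the GTPases were below it. The 8 endothelial markers summed to 256.5 and 189 in the control, 79.45 and 68.3 in Lipo-MK1775, and 172 and 89.7 in Free-MK1775+NLG919, and so were low in the same 3 libraries; 6 of the 8 fell in Lipo-MK1775 against the control, beside 21.0% of all genes called, and their part was not tested. The 11 macrophage and monocyte markers summed to 2883 and 3895 in the control, 3285 and 3481 in Lipo-MK1775, and 6878 and 2843 in Free-MK1775+NLG919, a sum carried by Lyz2 and the C1q genes. In Free-MK1775+NLG919 replicate 2, 9 of the 11 lay below the control mean (median -0.56, all genes -0.79), among them Csf1r at 39.0 against 88.55 and 96.4, and Ly6c2 at 0.501 against 28.2 and 14.7. Fibroblast markers (8) summed to 174 in that library against 601 and 486 in the control, and dendritic cell markers (7) to 15.95 against 50.7 and 38.9. Their medians against the control mean were -1.63 and -1.03, beside -0.79 for all genes. Both sums were the lowest of the 10 libraries, and the part of these cells in the result was not tested. Of the epithelial markers of the labelled carcinoma, Krt8 and Krt18 were present in every library (291.6 to 759.5 and 638 to 1093), Epcam was at 0 in 2 libraries and Krt14 at 0 in 5, and the B cell marker Ms4a1 was under 0.2 throughout.

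Across the 10 libraries the GTPases varied together: over the 45 pairs of members, the median Pearson r of log2(nuclear TPM + 1) was 0.85, and it was 0.61 (range -0.55 to 0.96) over the 7 libraries of low mitochondrial share. Igtp, Gbp2, Irgm1 and Gbp4 followed the mean of the other members most closely (r = 0.98, 0.98, 0.97 and 0.97 over 10 libraries) and Gbp8 least (0.66). The 8 genes other than the 10 members with the most similar profile, among 9623 with an established symbol and a mean of at least 5 nuclear TPM, were Irf1 (r = 0.99), Iigp1 (0.98), Pdia5, Spindoc, Parp12, Tgtp1, Nmi and Tmcc1 (0.98 each). Iigp1 and Tgtp1 are themselves interferon-inducible GTPases. Over the 7 libraries alone, r was 0.92 for Iigp1, 0.91 for Tgtp1, 0.88 for Irf1 and 0.61 to 0.74 for the other 5. The points share the depth and mitochondrial share of their library, so these values are a description. Tgtp1, another GTPase with a near-identical copy, was at 74.2 and 22.3 nuclear TPM in the control and at 0.861 in Free-MK1775+NLG919 replicate 2.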

How the data were processed

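Transcript levels of 10 RNA-seq libraries (5 groups of 2, by the labels) were taken from the table of FPKM the authors deposited. Per the submitters' processing notes, FastQC, Trim Galore, HISAT2, StringTie and GRCm39 were used; they name no version, strand setting or counting option. The FPKM of 161762 transcripts were summed by gene symbol (21051 without a name were left out) and rescaled to 1000000 outside the mitochondrial chromosome. Genes that reached 1 in 2 or more libraries were tested with limma 3.58.1 (R 4.3.3; trend) on log2(value + 1), which understates changes of low genes, with 1 mean per group over all 10 libraries, 5 residual degrees of freedom, and Benjamini-Hochberg adjustment. The limma estimates were checked on simulated data with known changes, with a spread taken from the 7 libraries of low mitochondrial share. The 3 libraries of high share did not enter it, so it does not show how well the adjusted p-values hold here. In each of the 9 contrasts, called members or else the 2 with the smallest p are named. Members and gene lists were chosen with earlier results of these data known. Alternatives varied the pseudocount, filter, scaling, transcript assignment, replicate block and libraries. Values of some genes on these lists are not reported here.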

Additional observations from a re-analysis of the deposited data

Results flagged for a closer look

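Gbp7 was called in the interaction, the test of whether its change with NLG919 differed between the Free and Lipo forms (4.10, log2, SE 1.12, limma adjusted p = 0.0429). In this contrast 21.0% of all genes were called, and the median of all genes was 1.12. All 3 libraries of high mitochondrial share enter it with signs that add up. It stood at 14.1 ± 3.00 nuclear TPM with Lipo-MK1775, 59.1 ± 9.74 with Lipo-MK1775+NLG, 73.6 ± 15.5 with Free-MK1775 and 25.7 ± 28.9 with Free-MK1775+NLG919 (SD, n = 2 each). With the transcript Gm43802 added, an alternative chosen after seeing the data, the value was 2.64 (limma adjusted p = 0.116). With median-of-ratios scaling it was 2.84 (limma adjusted p = 0.113). Gbp7 was not called with no filter on low values or with the replicate block. The call also ended without any 1 of the 8 libraries outside Free-MK1775+NLG919 (3.89 to 4.31, adjusted p = 0.0727 to 0.139); it was 2.65 (adjusted p = 0.0276) without Free-MK1775+NLG919 replicate 2. No group held enough libraries to test for a single library far from the rest.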

How the results depend on the processing

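Of 316 values of named members under alternatives, 262 kept their direction and their side of the threshold, 25 lost and 24 gained a call, and 5 reversed. The reversed ones were Gbp2 in Lipo-MK1775+NLG against the control (from -0.97 to 0.037 with 1 library left out, reversed without control replicate 1), Gbp6 in Free-MK1775 against the control (from -0.76 to 0.35, reversed without control replicate 1 and, at 0.29, without Free-MK1775 replicate 2) and Gbp9 there (from -0.51 to 0.22, reversed without control replicate 1 and, at 0.10, without Free-MK1775 replicate 1). Counts of called genes moved as follows, and the cause was not tested. Free-MK1775 against the control had 2, but 1 with a pseudocount of 0.1, FPKM as deposited, assembled transcripts, or without the 3 libraries of high mitochondrial share, and 20 with no filter. Free-MK1775+NLG919 against the control had 3, but 27 with no filter, 7 as deposited, 11 with median-of-ratios scaling and 21 with assembled transcripts. Lipo-MK1775 against the control had 3251, but 822, 5955, 826 and 6524 in that order. Lipo-MK1775+NLG against the control had 1, but 20 with no filter and 0 with median-of-ratios scaling, with assembled transcripts and without the 3 libraries. Free-MK1775+NLG919 against Free-MK1775 had 0, but 1 with a pseudocount of 0.1 or as deposited, 4 with no filter and 2 without the 3 libraries. Lipo-MK1775+NLG against Lipo-MK1775 had 826, but 51 with no filter, 6764 as deposited, 181 with median-of-ratios scaling and 5657 with assembled transcripts. Lipo-MK1775 against Free-MK1775 had 524, but 63, 5965, 140 and 4660 in that order, and the interaction 3249, but 26, 5801, 46 and 6987. Lipo-MK1775+NLG against Free-MK1775+NLG919 had 2, but 5 with no filter and 1 with assembled transcripts.

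Of the 10 members, Lipo-MK1775 against the control had 1 called, but 0 with a pseudocount of 0.1, no filter or median-of-ratios scaling and 4 as deposited. The interaction had 1, but 0 with no filter, median-of-ratios scaling or Gm43802 added, 5 as deposited and 4 with assembled transcripts. Lipo-MK1775 against Free-MK1775 had 0, but 5 as deposited and 1 with assembled transcripts, and Lipo-MK1775+NLG against Lipo-MK1775 had 0, but 1 as deposited. Leaving out 1 library at a time gave, in genes and in members called, 1 to 2 and 0 to 0 for Free-MK1775, 1 to 6421 and 0 to 9 for Free-MK1775+NLG919, 1 to 7601 and 0 to 7 for Lipo-MK1775 and 0 to 2 and 0 to 0 for Lipo-MK1775+NLG against the control. It gave 0 to 5669 and 0 to 9 for NLG919 in the free form, 2 to 7370 and 0 to 3 in the Lipo form, 2 to 6925 and 0 to 7 for Lipo-MK1775 against Free-MK1775, 1 to 6030 and 0 to 8 for the forms with NLG919, and 0 to 8822 and 0 to 10 for the interaction; a lone library was assumed to vary like the other groups. Without the 3 libraries, comparisons with Lipo-MK1775 and the interaction had no value. Median-of-ratios scaling moved the median of all genes in Lipo-MK1775 against the control from -0.78 to -0.06.

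Same-numbered libraries did not deviate together (correlations of deviations from -0.20 to 0.06), so the numbers do not pair them. With the replicate block, genes called were 1 for Free-MK1775, 2115 for Lipo-MK1775 and 0 for Lipo-MK1775+NLG against the control, 41 for Lipo-MK1775+NLG against Lipo-MK1775, 60 for Lipo-MK1775 against Free-MK1775, 1 for the forms with NLG919 and 72 for the interaction, and 0 members were called in any of the 9.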
